A study of Drosophila melanogaster with 7 samples.

Results

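Aminoacyl-tRNA synthetases are described here in sorted ovarian cells of Drosophila melanogaster, with Atx2 knocked down or not. The genes were chosen by name in the table of genes: an amino acid followed by RS, with the ending -m for the mitochondrial enzymes, and GluProRS, which carries the glutamyl and the prolyl synthetase in 1 protein. The rule found 33 of the 13771 listed genes, of which 15 were mitochondrial and 18 cytosolic. The rule itself uses no measured value, but it was chosen with earlier results of these data known. The cytosolic phenylalanyl enzyme, whose subunits are named alpha-PheRS and beta-PheRS, and Slimp, a relative of mitochondrial seryl-tRNA synthetase, fall outside the rule and are described with the related genes. No gene named for a mitochondrial glycyl, histidyl, lysyl, threonyl or glutaminyl enzyme was found by the rule.

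A synthetase joins an amino acid to its tRNA, and the charged tRNA is then carried to the ribosome by an elongation factor. Ribosomes in the cytosol and in mitochondria use separate tRNAs, and all synthetases, the mitochondrial ones included, are encoded in the nucleus. Some genes serve both compartments by giving proteins with and without an N-terminal mitochondrial targeting sequence, as human GARS1 and KARS1 do. In many mitochondria, glutaminyl-tRNA is made by a detour in which the glutamyl enzyme charges the tRNA and an amidotransferase then converts the amino acid.

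The study asked what differs when Atx2, the fly gene of the RNA-binding protein Ataxin-2, is knocked down, in work on chromosome pairing in female meiosis. Atx2 KD cells expressed a hairpin RNA against Atx2 (Bloomington stock 36114) and Control KD cells a hairpin against mCherry (Bloomington stock 35785), a fluorescent protein that flies lack. Both hairpins were driven by nos-GAL4::VP16, which is active in the germline, and all cells carried bamP-GFP, a reporter of the promoter of bam, which is used in dividing germline cysts. Ovaries were dissociated with enzymes for 30 min at 37 °C, live GFP-positive cells were sorted, and RNA without poly(A) selection was sequenced after removal of ribosomal RNA. There were 4 Atx2 KD and 3 Control KD libraries. The labels give neither the age of the flies nor how many were pooled, and they do not say whether replicates came from separate flies, so p-values measure the spread between these libraries.

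Library totals ranged from 65262402 to 101809997 estimated counts, and the synthetase genes held between 569 and 46216 counts per library. Atx2 was lower in every Atx2 KD library, at 63.1 ± 9.72 TPM (SD, n = 4), against 111 ± 1.12 TPM in Control KD libraries (SD, n = 3). TPM is the authors' length-scaled abundance, which can be set side by side between genes. Of 7 listed germline markers, 3 were lower in Atx2 KD and none higher at an adjusted p under 0.05 (edgeR). The 7 markers summed to 928 to 1278 TPM in Atx2 KD and 1228 to 1776 TPM in Control KD. The gene bam, whose promoter drives the reporter, was the 1 marker with a log2 fold change above 0. It was at 0.28 ± 0.10 (SE, adjusted p = 0.102, edgeR). Scaled to a common library total, its counts were higher in every Atx2 KD library than in every Control KD library. Markers of other cells were present in every group. Eggshell and yolk genes summed to 5092 to 26000 TPM in Atx2 KD and 34476 to 68054 TPM in Control KD, with 5 of 10 lower. Muscle genes summed to 298 to 457 TPM in Atx2 KD and 180 to 283 TPM in Control KD, with 5 of 5 higher. Hemocyte genes summed to 1237 to 1726 TPM in Atx2 KD and 701 to 760 TPM in Control KD, with 2 of 6 higher. Escort and early follicle genes (2 of 9 higher) and fat body genes (1 of 3 higher) summed to 497 to 698 TPM and 4.82 to 7.41 TPM in Atx2 KD, against 423 to 568 TPM and 1.93 to 2.88 TPM in Control KD. With the replicate number as a term in the fit (the replicate block), 5 germline and 10 eggshell and yolk markers were lower. Atx2 KD replicate 4 has no Control KD library of its number, so it adds nothing to the knockdown estimate of that fit. Results with the block thus rest on replicates 1 to 3 of each group. With this block, 5 hemocyte and 3 escort and early follicle markers were higher. Over all genes tested, 13.3% were called without the block and 28.0% with it. None of these markers was at 0 in all libraries. The part of these other cells in the synthetase values was not tested. A fit with the eggshell and yolk level as a covariate was run. That level, as mean log2 CPM, was 7.10 to 9.52 in Atx2 KD and 9.72 to 10.7 in Control KD. The groups did not overlap in it, so this fit cannot tell the covariate from the knockdown. In bulk RNA, fewer cells of a type and less RNA per cell cannot be told apart.

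All 33 synthetase genes were expressed, and the cytosolic genes were expressed far above the mitochondrial ones. The median level over the 7 libraries was 14.3 TPM for the mitochondrial genes and 104 TPM for the cytosolic genes, a ratio of 7.28. By mean level AspRS-m, at 57.0 TPM, was the only mitochondrial gene above the lowest cytosolic gene, and the highest and the lowest gene of the family were 28.6-fold apart. The enzymes for lysine and threonine led the cytosolic class. LysRS was at 219, 189, 212 and 220 TPM in Atx2 KD replicates 1 to 4 and at 196, 170 and 195 TPM in Control KD replicates 1 to 3. ThrRS averaged 168 ± 13.6 TPM in Atx2 KD and 153 ± 8.70 TPM in Control KD. TrpRS and MetRS, which also charges the initiator tRNA, were lowest, with means over all libraries of 40.3 and 40.5 TPM. The other 14 cytosolic genes lay in between. AspRS was at 147 TPM, SerRS at 117 TPM and AsnRS at 113 TPM. HisRS, AlaRS, TyrRS, GlyRS, IleRS and GluProRS lay close together at 97.3 to 107 TPM, and LeuRS, ValRS, GlnRS, CysRS and ArgRS at 56.0 to 66.5 TPM.

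**Figure D1:**
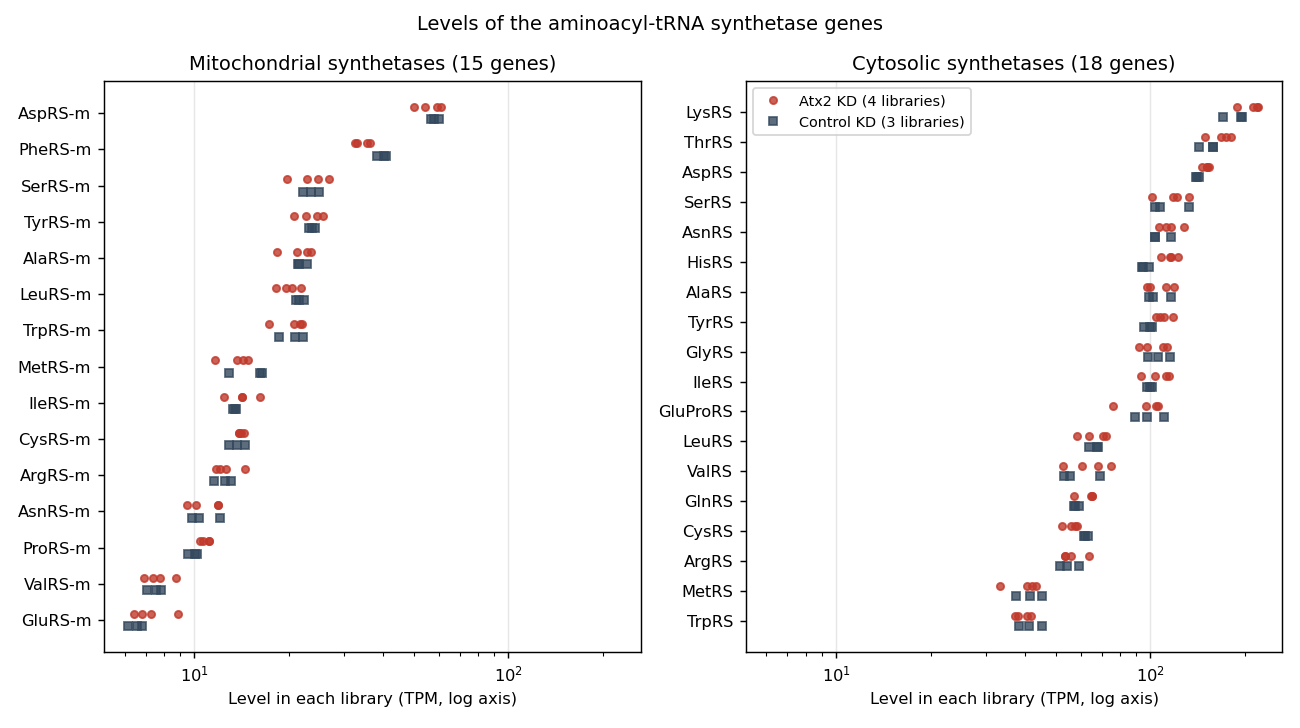
Level of each synthetase gene in TPM on a log axis, with 1 point per library, for the 15 mitochondrial genes on the left and the 18 cytosolic genes on the right, ordered by mean level. Red circles are Atx2 KD and blue squares Control KD libraries. By mean level only AspRS-m, at 57.0 TPM, reaches the range of the cytosolic genes, which starts at 40.3 TPM.

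In the mitochondrial class, AspRS-m and PheRS-m, a single-chain phenylalanyl enzyme, were highest. AspRS-m averaged 56.1 ± 4.96 TPM in Atx2 KD and 58.2 ± 1.76 TPM in Control KD. ValRS-m and GluRS-m, the enzyme that starts the detour to glutaminyl-tRNA, were lowest, at 7.61 and 6.99 TPM over all libraries. GluRS-m averaged 7.34 ± 1.09 TPM in Atx2 KD and 6.52 ± 0.337 TPM in Control KD. SerRS-m, TyrRS-m, AlaRS-m, LeuRS-m and TrpRS-m lay at 20.5 to 23.5 TPM, and MetRS-m, IleRS-m, CysRS-m, ArgRS-m, AsnRS-m and ProRS-m at 10.5 to 14.3 TPM. The order within a class was loose. Among the 17 neighbouring pairs of the cytosolic order, 14 overlapped over the 7 libraries, with gaps only below AspRS, below GluProRS and below ArgRS. Among the 14 neighbouring pairs of the mitochondrial order, 10 overlapped, with gaps below AspRS-m, PheRS-m, TrpRS-m and ProRS-m. The levels varied little between libraries: the highest library was 1.13 to 1.44 times the lowest for the mitochondrial genes and 1.10 to 1.45 times the lowest for the cytosolic genes.

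Synthetase RNA differed little between Atx2 KD and Control KD cells. In edgeR's quasi-likelihood test with Benjamini-Hochberg adjustment over all 10514 genes tested, 0 of 15 mitochondrial genes passed, and of 18 cytosolic genes 1 rose (HisRS) and none fell. Over all genes tested, 13.3% were called. All 33 genes differed by less than 0.25 on the log2 scale, whereas 56.2% of all genes did. With the eggshell and yolk covariate, 6 of the 33 reached 0.25 (SerRS at 0.50, TyrRS at 0.48, AsnRS at 0.39, HisRS at 0.30, AlaRS and AsnRS-m at 0.26), the values ran from -0.19 to 0.50, and 1 gene, TyrRS, was called. Over the other alternatives HisRS, PheRS-m and CysRS passed 0.25 in size in some, and all values lay between -0.29 and 0.28. The standard error of a synthetase's log2 fold change had a median of 0.08, beside 0.12 over all genes tested, so the intervals were narrow. The part of this difference in precision in the share of genes under 0.25 was not tested. The 95% intervals reached at most a 1.34-fold difference in either direction, and those of 22 genes, 10 mitochondrial and 12 cytosolic, lay wholly within 1.25-fold. Beside the 0 mitochondrial calls of edgeR, counting at an unadjusted p under 0.05, 2 mitochondrial genes were lower (PheRS-m and LeuRS-m) and none higher, DESeq2 called PheRS-m, and limma on log2(TPM + 1) called none. At that unadjusted level, 1 cytosolic gene was higher (HisRS) and 1 lower (CysRS), and 30.6% of all genes tested reached it in either direction.

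**Figure D2:**
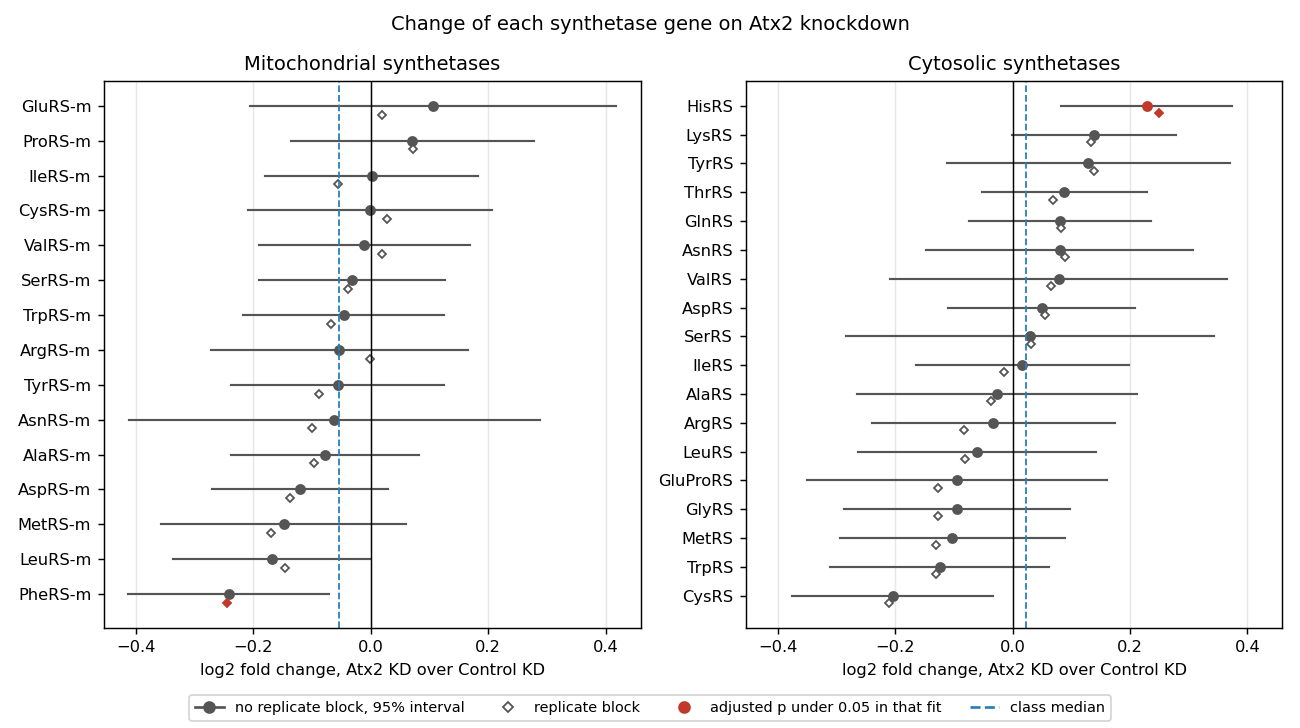
Log2 fold change of each synthetase gene, Atx2 KD over Control KD, mitochondrial on the left and cytosolic on the right. Circles with lines are the estimates with 95% intervals, small diamonds the estimates with replicate number as a blocking term, red marks an adjusted p under 0.05 in that fit, and dashed lines are the class medians, -0.05 and 0.02. All circles lie within 0.25 of 0, and HisRS is the only red one.

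HisRS, which charges histidyl-tRNA (X, 18515428 to 18520445, plus strand, BDGP6.54), was the cytosolic gene that rose. It had 174, 181, 176 and 167 CPM in Atx2 KD replicates 1 to 4, against 145, 156 and 146 CPM in Control KD replicates 1 to 3, where CPM is the count scaled to a common library total. Every Atx2 KD library was above every Control KD library. This is a log2 fold change of 0.23 ± 0.06 (SE), and edgeR's test gave an adjusted p of 0.0482, or 0.0180 with the replicate block. The size held at 0.21 to 0.30 over the alternatives run, but the call did not: without any 1 of the 7 libraries in turn the adjusted p of the same test was 0.0747 to 0.158, and with the eggshell and yolk covariate it was 0.123. HisRS shares 255 exon bases with Bx on the same strand, and its estimated counts were not whole numbers, to within 0.01, in 7 of 7 libraries, so part of its count rests on how Salmon shared out reads.

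PheRS-m (2R, 13968308 to 13969902, plus strand) had the largest difference of the mitochondrial class, in the other direction. It had 32.7, 37.7, 38.4 and 36.2 CPM in Atx2 KD and 41.4, 44.1 and 43.1 CPM in Control KD. The groups did not overlap, and the log2 fold change was -0.24 ± 0.08. The adjusted p from edgeR was 0.0658, which misses the threshold; with the replicate block it was 0.0276, where PheRS-m and HisRS were the 2 synthetases called among 28.0% of all genes. With the level of the eggshell and yolk genes as a covariate, the log2 fold change was -0.07 at an adjusted p of 0.757.

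LysRS (X, 9606363 to 9608884, minus strand) and CysRS (2R, 16143147 to 16145906, plus strand) had the next largest values in each direction, without passing. LysRS had 295, 302, 307 and 305 CPM in Atx2 KD and 271, 267 and 285 CPM in Control KD, all Atx2 KD libraries being higher. Its log2 fold change was 0.14 ± 0.06 (adjusted p = 0.165, edgeR). CysRS had 94.0, 102, 103 and 102 CPM in Atx2 KD and 109, 125 and 113 CPM in Control KD, all Atx2 KD libraries being lower. Its log2 fold change was -0.20 ± 0.08 (adjusted p = 0.106, edgeR), and -0.07 to -0.26 over the alternatives run.

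**Figure D3:**
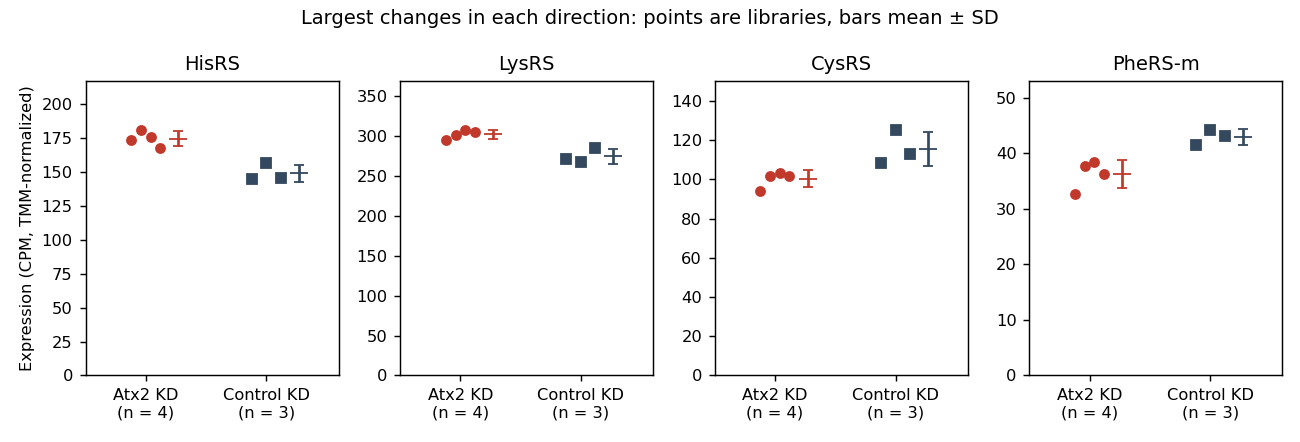
Expression in CPM, on axes that start at 0, of the genes with the largest values in each direction: HisRS, LysRS, CysRS and PheRS-m. Points are libraries, and bars give the mean ± SD of 4 Atx2 KD and 3 Control KD libraries. The groups do not overlap in any of the 4 genes, and the means differ little, for HisRS 174 CPM in Atx2 KD and 149 CPM in Control KD.

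Among the other mitochondrial genes, LeuRS-m had 43.1, 44.3, 49.0 and 42.5 CPM in Atx2 KD and 49.3, 51.9 and 49.6 CPM in Control KD, a log2 fold change of -0.17 ± 0.07 (adjusted p = 0.162, edgeR). The highest mitochondrial values were 0.11 ± 0.14 for GluRS-m (adjusted p = 0.642, edgeR) and 0.07 ± 0.09 for ProRS-m (adjusted p = 0.643, edgeR), whose groups overlapped. TrpRS was at -0.12 ± 0.08 (adjusted p = 0.346, edgeR), and its Atx2 KD libraries, at 40.4 to 48.8 CPM, lay just below the Control KD libraries, at 48.8 to 51.7 CPM. The remaining mitochondrial genes did not pass either. AspRS-m was at -0.12 ± 0.07, with groups that did not overlap. MetRS-m was at -0.15 ± 0.09, AlaRS-m at -0.08 ± 0.07, AsnRS-m at -0.06 ± 0.16 and TyrRS-m at -0.06 ± 0.08, while ArgRS-m, TrpRS-m, SerRS-m, ValRS-m, CysRS-m and IleRS-m lay between -0.05 and 0.00. Other than AspRS-m, these overlapped between the groups. ValRS-m, at -0.01, turned to 0.04 with upper-quartile scaling.

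The other cytosolic genes were likewise not called. TyrRS was at 0.13 ± 0.11 (adjusted p = 0.453, edgeR), and with the eggshell and yolk covariate it was called at 0.48 (adjusted p = 0.0424, edgeR). ThrRS was at 0.09 ± 0.06, and GlnRS, AsnRS and ValRS were each at 0.08. AspRS, SerRS, IleRS, AlaRS, ArgRS and LeuRS lay between -0.06 and 0.05. MetRS was at -0.10 ± 0.08 and GlyRS at -0.09 ± 0.09, the value for GlyRS turning to 0.05 with the eggshell and yolk covariate. Of the 33 genes, 8 had groups that did not overlap, beside 27.4% of all genes tested. They were LysRS, ThrRS and HisRS, all higher, with CysRS and TrpRS, lower, among the cytosolic genes, and AspRS-m, PheRS-m and LeuRS-m, all lower, among the mitochondrial genes.

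The classes differed slightly in where their values lay, and by less than the values spread within a class. The median log2 fold change was -0.05 for the mitochondrial genes (range -0.24 to 0.11) and 0.02 for the cytosolic genes (range -0.20 to 0.23), beside 0.01 over all genes tested. The mitochondrial median was thus lower by 0.08. Of the mitochondrial genes, 12 of 15 had a value below 0, against 8 of 18 cytosolic genes and 49.0% of all genes. This count depends on the scaling, since several of these values lay close to 0. With upper-quartile scaling SerRS-m, CysRS-m, ValRS-m, TrpRS-m and ArgRS-m turned above 0, as did ArgRS and AlaRS of the cytosolic genes. The mitochondrial median stayed below the cytosolic one under each alternative run, from -0.21 to -0.03. Its own sign was less settled, since with upper-quartile scaling, which moved the median of all genes to 0.06, it was 0.00. With the median of all genes subtracted, the mitochondrial median was -0.06 in both scalings.

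Summed over each class, the libraries of the groups overlapped. The mitochondrial genes together made 302, 262, 293 and 305 TPM in Atx2 KD (291 ± 19.5 TPM), against 306, 292 and 298 TPM in Control KD (298 ± 7.08 TPM). The cytosolic genes made 1751, 1647, 1871 and 1874 TPM in Atx2 KD (1786 ± 109 TPM), against 1677, 1629 and 1777 TPM in Control KD (1695 ± 75.6 TPM). The mitochondrial sum was 17.2%, 15.9%, 15.6% and 16.3% of the cytosolic sum in Atx2 KD, and 18.2%, 17.9% and 16.7% in Control KD, where replicate 3 fell inside the Atx2 KD range. The class mean of log2 CPM was 4.71 ± 0.03 in Atx2 KD and 4.76 ± 0.06 in Control KD for the mitochondrial genes. For the cytosolic genes it was 7.37 ± 0.09 in Atx2 KD and 7.37 ± 0.08 in Control KD.

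For 12 amino acids the rule gave 1 mitochondrial and 1 cytosolic gene, so that the classes can be set side by side for the same amino acid. The cytosolic gene was higher in all 7 libraries for 12 of 12, by 1.97-fold for tryptophan up to 10.4-fold for asparagine, with a median of 4.46-fold. The log2 fold change of the mitochondrial gene was below that of its cytosolic partner for 10 amino acids and above it for 2, tryptophan and cysteine. The differences ran from -0.19 for tyrosine to 0.20 for cysteine, with a median of -0.06.

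The ratio of the partners separated the groups for aspartate and cysteine, in opposite directions, and overlapped for the other 10 amino acids. How often such a ratio separates the groups for other pairs of genes was not counted. Taken singly, 27.4% of all genes tested had Atx2 KD and Control KD libraries that lay apart in CPM, so a separation alone is common in these data. AspRS-m was at 40.2%, 34.1%, 35.9% and 38.4% of AspRS in Atx2 KD, against 41.8%, 41.1% and 40.4% in Control KD, so that every Atx2 KD library was lower, by a narrow margin. Neither partner passed the test, with log2 fold changes of -0.12 ± 0.07 for AspRS-m (adjusted p = 0.256, edgeR) and 0.05 ± 0.07 for AspRS (adjusted p = 0.676, edgeR). CysRS-m was at 25.7%, 26.9%, 24.1% and 23.7% of CysRS in Atx2 KD, against 22.1%, 22.8% and 20.9% in Control KD. Every Atx2 KD library was higher, and CysRS-m itself was at 19.5 ± 1.08 CPM in Atx2 KD and 19.5 ± 2.13 CPM in Control KD. Exons of AspRS and of CysRS-m overlap those of genes on the opposite strand by 1575 and 302 bases, and whether strand was used in counting is not given in the sources used here.

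**Figure D4:**
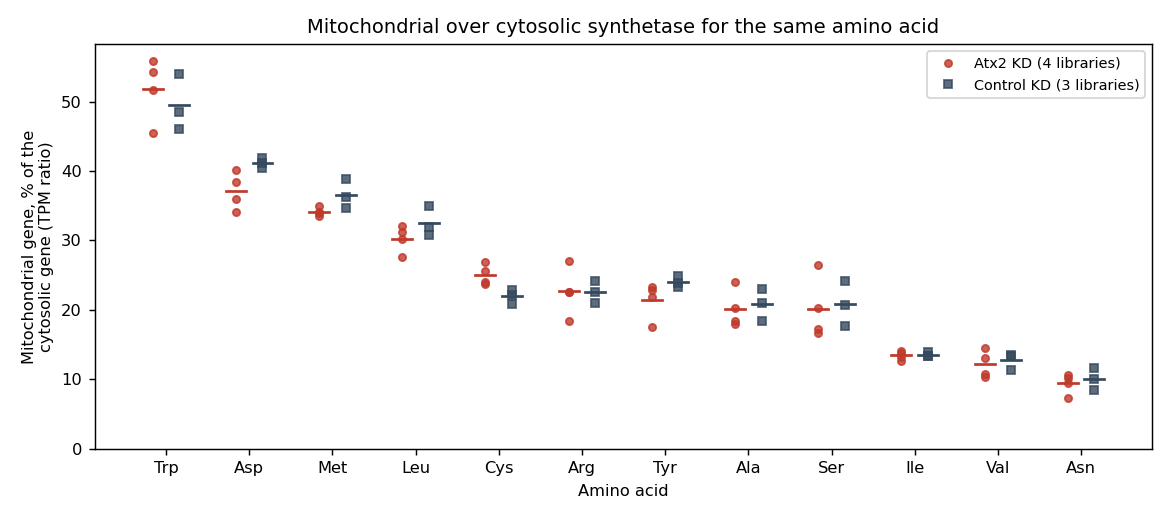
TPM of the mitochondrial gene as a percentage of the TPM of the cytosolic gene for the same amino acid, for the 12 amino acids with 1 gene of each class. Points are libraries and lines group means, red for Atx2 KD and blue for Control KD. All points lie below 100%, and the groups separate only for Asp (mean 37.1% in Atx2 KD and 41.1% in Control KD) and Cys (25.1% in Atx2 KD and 21.9% in Control KD).

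Synthetases fall into structural classes by the fold of their catalytic domain, and the values are given by these classes too. Enzymes with a class I catalytic fold (18 genes, among them CysRS, TrpRS, LeuRS-m and GluRS-m) had a median of -0.04 on the log2 fold change scale and no call. Enzymes with a class II fold (14 genes, among them HisRS, LysRS, ThrRS, PheRS-m and AspRS-m) had a median of 0.00 and 1 call. GluProRS, which joins an enzyme of each class, was at -0.09 ± 0.11. Of the cytosolic genes, 8 encode enzymes known in animals as parts of the multisynthetase complex, a particle that holds several synthetases together. Their median was -0.01, with no call, and that of the 10 others was 0.05, with HisRS called. The complex members ranged from -0.10 for MetRS to 0.14 for LysRS.

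GlyRS, HisRS, LysRS and ThrRS have no mitochondrial namesake (nor does GlnRS, which had 1 transcript), and each had transcripts that start coding at another place and give a longer protein than the main transcript, by 86, 32, 33 and 57 codons in the BDGP6.54 annotation. Which form enters mitochondria was not assessed. These transcripts were a minor share of each gene, and for ThrRS and HisRS every Atx2 KD library had a lower share than every Control KD library. For ThrRS they made 11.3%, 11.5%, 10.9% and 11.1% of the gene's counts in Atx2 KD, against 16.1%, 14.9% and 13.8% in Control KD. For HisRS they made 23.6%, 20.4%, 20.3% and 23.6% in Atx2 KD, against 26.9%, 26.3% and 24.8% in Control KD. In TPM these ThrRS transcripts summed to 16.5 ± 1.11 in Atx2 KD and 20.5 ± 1.9 in Control KD. For HisRS they summed to 21.4 ± 2.70 TPM in Atx2 KD and 21.0 ± 1.51 TPM in Control KD, while the main transcript FBtr0074593 was at 94.0 ± 3.91 TPM in Atx2 KD and 74.7 ± 1.79 TPM in Control KD. Transcript usage of HisRS did not pass (adjusted p = 1.00, edgeR's diffSpliceDGE). For GlyRS the share was 9.59 ± 1.23% in Atx2 KD and 8.90 ± 0.188% in Control KD. For LysRS it was 4.82 ± 0.330% in Atx2 KD and 4.56 ± 0.634% in Control KD, with overlap in both genes. How often the transcript shares of other genes separate between the groups was not counted. In gene-level CPM, the groups did not overlap for 27.4% of all genes tested.

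**Figure D5:**
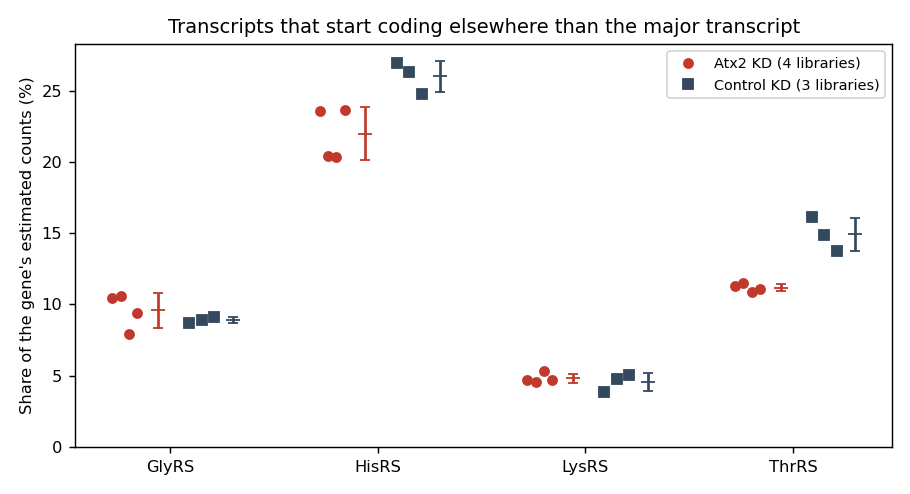
Share of the gene's estimated counts, in percent, held by transcripts that start coding elsewhere than the main transcript, for 4 genes without a mitochondrial namesake. Points are libraries and bars the mean ± SD of 4 Atx2 KD (red) and 3 Control KD (blue) libraries. The groups separate for HisRS and ThrRS (means of 11.2% in Atx2 KD and 14.9% in Control KD for ThrRS) and overlap for GlyRS and LysRS.

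ThrRS passed a test of transcript usage, which asks whether any transcript of a gene shifts in share. The summed share of the longer forms was not itself tested. ThrRS was the 1 gene called among the 20 synthetase genes with several transcripts, with an adjusted p of 0.0316 from edgeR's diffSpliceDGE, beside 3.96% of all genes tested and, with the replicate block, 4.72%. With the block the adjusted p was 0.00679, and with limma on the log2 transcript shares it was 0.105. Without 1 library at a time it was 0.0185 to 0.237. Of the ThrRS transcripts, FBtr0080332 held 6.04%, 7.40%, 4.88% and 6.50% of ThrRS counts in Atx2 KD, against 11.0%, 12.0% and 9.98% in Control KD. It encodes the longer form, and so does FBtr0346436, which held 4.98 ± 0.803% in Atx2 KD and 3.94 ± 1.14% in Control KD.

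Of the 64 transcripts of the synthetase genes, all tested, 3 were called in edgeR's quasi-likelihood test over all transcripts, where 4.71% were called, and 12 had an unadjusted p under 0.05, beside 22.1% of all transcripts. ThrRS FBtr0080332 fell, with a log2 fold change of -0.73 ± 0.15 (adjusted p = 0.0383, edgeR), and it was the 1 synthetase transcript called with the replicate block (adjusted p = 0.0464, edgeR), where 3.01% of all transcripts were called. AsnRS FBtr0332578, a longer transcript with the coding sequence of the main one, rose to 5.83 ± 0.303% of AsnRS counts in Atx2 KD, against 3.38 ± 0.698% in Control KD (log2 fold change 0.87 ± 0.19, adjusted p = 0.0454, edgeR). AspRS-m FBtr0331622 rose to 14.8 ± 0.832% of AspRS-m counts in Atx2 KD, against 10.2 ± 0.333% in Control KD (log2 fold change 0.42 ± 0.09, adjusted p = 0.0486, edgeR). The AsnRS and AspRS-m transcripts were not called with the block, at adjusted p of 0.0985 and 0.0833 in edgeR. Without 1 library at a time the adjusted p rose to as much as 0.127 for the ThrRS, 0.144 for the AsnRS and 0.147 for the AspRS-m transcript.

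Calls among genes that work beside the synthetases are given in this and the following paragraphs. Over all genes tested, 13.3% were called, and 28.0% with the replicate block. None of the 3 synthetase genes outside the name rule was called: alpha-PheRS was at a log2 fold change of 0.14 ± 0.11, beta-PheRS at 0.02 ± 0.10 and Slimp at -0.20 ± 0.09. With the eggshell and yolk covariate alpha-PheRS was at 0.43 (adjusted p = 0.130, edgeR). None of the 3 scaffold genes of the multisynthetase complex was called, with AIMP2 at 0.15 ± 0.13. AIMP3 was at 81.2 ± 2.15 TPM in Atx2 KD and 68.9 ± 3.04 TPM in Control KD (0.21 ± 0.10, adjusted p = 0.178, and 0.0345 with the block, edgeR).

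Among 5 genes, the carriers of charged tRNA together with the elongation factor Ts gene mEFTs, 1 rose and none fell. mEFTu1, a mitochondrial elongation factor Tu, was at 189, 190, 206 and 202 TPM in Atx2 KD, against 163, 152 and 163 TPM in Control KD, with no overlap. Its log2 fold change was 0.29 ± 0.08 (adjusted p = 0.0452, edgeR), and the adjusted p was 0.0250 to 0.157 without 1 library at a time. With the eggshell and yolk covariate it was at 0.52 (adjusted p = 0.0271, edgeR). Its paralogue mEFTu2 was at -0.16 ± 0.07 (adjusted p = 0.168, edgeR).

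In the detour to mitochondrial glutaminyl-tRNA and, apart from it, the formylation of the mitochondrial initiator tRNA, 0 of 4 genes were called. GatA, an amidotransferase subunit, was at 19.6 ± 0.998 CPM in Atx2 KD and 16.3 ± 1.08 CPM in Control KD (0.27 ± 0.08, adjusted p = 0.0617, and 0.0491 with the block, edgeR). Its partner subunits GatB and GatC were at -0.14 ± 0.08 and -0.08 ± 0.07. None of 4 mitochondrial tRNA processing genes was called; with the eggshell and yolk covariate scu was, at 0.56 (adjusted p = 0.0365, edgeR). RNaseZ, which trims the tRNA 3′ end, was at -0.24 ± 0.08 (adjusted p = 0.0729, and 0.0426 with the block, edgeR), and rswl at -0.16 ± 0.12 (adjusted p = 0.392, and 0.0405 with the block, edgeR).

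Of 10 genes of the amino acid response, in which the kinase Gcn2 senses uncharged tRNA and the factor crc (ATF4) raises its targets, none rose and 2 fell. Thor, a translation inhibitor that binds eIF4E, was at 376 ± 66.0 TPM in Atx2 KD and 508 ± 34.9 TPM in Control KD (log2 fold change -0.48 ± 0.13, adjusted p = 0.0390, edgeR). trbl, the fly Tribbles gene, was at 43.4 ± 2.92 TPM in Atx2 KD and 59.9 ± 3.56 TPM in Control KD (-0.49 ± 0.08, adjusted p = 0.00793, edgeR). The groups did not overlap in either gene. Gcn2 was at 0.15 and crc at -0.17, without passing (adjusted p = 0.296 and 0.231, edgeR). AsnS, the asparagine synthetase gene, was at -0.04 ± 0.21. The adjusted p of Thor was 0.0314 to 0.140 without 1 library at a time, with edgeR. With the eggshell and yolk covariate neither gene was called, at -0.49 for Thor (adjusted p = 0.245, edgeR) and -0.40 for trbl (adjusted p = 0.138, edgeR).

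None of 13 heat shock genes was called between the groups in edgeR's quasi-likelihood test, and 3 were lower with the replicate block. Their mean log2 CPM was higher in replicates 3 and 4 than in replicates 1 and 2 of a group, so the largest differences were also taken within each side. HisRS was at 0.24 on both sides in the difference of mean log2 CPM, and PheRS-m at -0.29 in replicates 1 and 2 and -0.21 in replicates 3 and 4. CysRS was at -0.25 and -0.14, and LysRS at 0.15 and 0.10. The mean of the mitochondrial class was at -0.09 in replicates 1 and 2 and -0.01 in replicates 3 and 4, and that of the cytosolic class at -0.02 and 0.01. The groups of these 4 genes did not overlap, so their direction had to be the same on both sides and is no check. The mitochondrial mean was farther below 0 in replicates 1 and 2. The side with replicates 3 and 4 holds 1 Control KD library, and no p is given for it.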

How the data were processed

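The deposited estimated counts and TPM values per gene and per transcript were made by the authors with Salmon 1.9.0 after Trim Galore 0.6.7 and cutadapt 2.10, per the submitters' processing notes; the labels call them not normalized. The index, annotation and genome build are not given in the sources used here. Genes were matched by FlyBase ID to the Ensembl annotation of BDGP6.54, where all 33 synthetase genes and all 64 of their transcripts were found. Transcript levels were measured in 4 Atx2 KD and 3 Control KD libraries, grouped by the labels.

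Estimated counts were rounded, filtered with filterByExpr (minimum count 10, minimum total 15), normalized by TMM and tested two-sided in R 4.3.3 by edgeR 4.0.16 (glmQLFit and glmQLFTest), with Benjamini-Hochberg adjustment over all genes or transcripts tested and a threshold of 0.05. The standard error is the log2 fold change divided by the square root of the F statistic. Fold changes are Atx2 KD over Control KD. For transcript usage, diffSpliceDGE gave a Simes p per gene. DESeq2 1.42.0, limma 3.58.1 and the other alternatives are given in the closing section. The script was tested on simulated data.

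The lists and members were chosen with earlier results of these data known. The genes named were the synthetases called with or without the replicate block, those at the extremes of level and of change in each class, those without a mitochondrial namesake, and, of each related list, those called or the 2 with the largest changes. AspRS, CysRS-m, TyrRS and the transcripts were added after their values were seen. Class membership of the folds and of the multisynthetase complex comes from textbook knowledge.

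A count of 3 corresponds to 0.0295 to 0.0460 CPM, counting error only, far below the lowest synthetase value of 7.39 CPM. Pairs of libraries of 1 group differed beyond sampling noise, so each counted as 1 replicate. Same-numbered libraries of both groups deviated together (correlations of 0.176, 0.410 and 0.571 for numbers 1 to 3, from the titles). A fit with the numbers as pairs, the replicate block, was therefore run beside the main fit. The main fit leaves the numbers out, because the labels do not say what they stand for. The nos gene was not analysed here.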

Additional observations from a re-analysis of the deposited data

How the results depend on the processing

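Genes called numbered 1396 (590 higher, 806 lower), and 2150 with DESeq2, 2941 with the replicate block, 627 with only the libraries numbered 1 and 2, 518 with an eggshell and yolk covariate and 467 to 1454 without 1 library at a time. The split was 811 higher and 600 lower with upper-quartile scaling and 688 higher and 438 lower with limma on log2(TPM + 1). Cytosolic genes called numbered 0 with no count filter, with the libraries numbered 1 and 2, with a heat shock covariate, and 0 to 0 without 1 library at a time; with the eggshell and yolk covariate TyrRS was called (0.48, adjusted p = 0.0424, edgeR) in place of HisRS (adjusted p = 0.123, edgeR). Mitochondrial genes called numbered 1, PheRS-m, with DESeq2, an effective length offset and the replicate block. The cytosolic median was 0.14 and the mitochondrial minus cytosolic difference -0.21 with the eggshell and yolk covariate. The mitochondrial median was 0.0027 with upper-quartile scaling and -0.10 with the libraries numbered 1 and 2.

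Of the 33 synthetase genes, 9 turned sign with the eggshell and yolk covariate, 7 with upper-quartile scaling, 6 with each TPM fit, 4 with the replicate block and with the libraries numbered 1 and 2, and at most 4 under any other alternative; the largest value that turned had been 0.12 in size, that of TrpRS. Among the genes named by rule, signs turned for GluRS-m to -0.079 with the libraries numbered 1 and 2, GlyRS to 0.048 and TrpRS to 0.024 with the eggshell and yolk covariate. ValRS-m, at -0.01, was at 0.043 with upper-quartile scaling, 0.034 and 0.038 with limma on log2(TPM + 1) and log2(TPM + 0.1), 0.0192 with the replicate block, 0.0405 with the libraries numbered 1 and 2, and -0.044 to 0.0197 without 1 library at a time. Transcripts called numbered 1023, 654 with the replicate block and 159 to 814 without 1 library at a time. Genes with unequal transcript usage numbered 202, 134 with limma on transcript shares and 132 to 210 without 1 library at a time. Where a call or value moved, the cause was not tested. Among the genes and transcripts named, the replicate block changed no call other than those printed beside their results.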
